A study of Mus musculus with 36 samples.

Results

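Fibroblasts of the fetal mouse cornea were compared with fibroblasts of fetal mouse skin after both had been kept under flowing medium. The comparison was made over all 18193 genes measured, and its members were the arrays whose titles name cornea or skin fibroblasts as stimulated. These were 12 arrays of 36 in the series, 6 for each tissue, which make 6 libraries because each library was hybridised to both chips of the Affymetrix MOE430 set (chip A and chip B). The cells were primary cultures from CD1 fetuses taken 19 days after conception, carried through 5 population doublings and seeded on glass coated with gelatin. All of them then spent 14 h in medium with 2% serum, exposed in the cornea flow and skin flow groups to laminar flow with a shear of 0.1 dyn/cm2, or left without flow in the cornea static and skin static groups, which are used below only for comparison. There were 3 libraries per group, no group carried a genetic change, and the labels leave unsaid which fetuses or litters gave each replicate, so the spread behind the p-values is that between these libraries. Tendon flow libraries, treated in the same way, are given where they show the position of a further tissue. The description field of the tendon flow arrays names cornea while their titles name tendon, and they were taken as tendon after their titles. Their Aqp1 levels of 6.13, 6.17 and 6.04 lay with those of skin flow (5.69, 6.35 and 5.59) and away from cornea flow (10.10, 9.62 and 9.65). Aqp1 was picked with its values in view and cannot tell tendon from skin, and for Igfbp4 and Dynap these libraries lay with cornea flow.

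Fibroblasts make and remodel the collagen matrix of connective tissue, and they keep a record of where in the body they arose. Corneal stromal fibroblasts derive from cranial neural crest, whereas the fibroblasts of most trunk and limb skin derive from mesoderm, and Hox genes, which mark position along the body axis, are used in trunk and limb and are largely silent in the face. In the intact cornea the quiescent stromal cells, the keratocytes, make keratan sulphate proteoglycans and large amounts of soluble aldehyde dehydrogenases, and in culture with serum they lose much of this character and come to resemble other fibroblasts. The study compared how fibroblasts of different tissues respond to fluid flow, and the comparison below asks how far cornea and skin differed while both were under flow.

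The values are log2 intensities, so that a difference of 1 is a doubling, and a difference is cornea minus skin unless stated otherwise. Errors of differences are standard errors of the fit. A gene was called different at an adjusted p below 0.05 in limma with Benjamini-Hochberg adjustment over all genes, and adjusted p-values below are from that fit. Chip A had its 25th percentile of probe set means at 5.95 and chip B at 4.83, and levels below these are termed low. RNA amounts per cell and the number of cells of a kind cannot be told apart in such bulk cultures. Hybridisation runs were inferred from the hybridisation times in the scan records. In the 6 flow libraries the replicate number coincides with the run, so that each of the 3 same-numbered pairs is a comparison within 1 run. The pair of replicate 1 also differed from the other pairs in the month of hybridisation and in the chip lot.

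Under flow 346 of 18193 genes were called (1.90%). Of these 146 were higher in corneal fibroblasts (0.803% of genes) and 200 were higher in skin fibroblasts (1.10%). The difference exceeded 2-fold for 201 of them and 4-fold for 50, of which 23 were higher in cornea and 27 in skin. The levels of the tissues did not overlap for 345 of the 346, against 12.9% of all genes, and 345 differed in the same direction within each of the 3 runs, against 33.0% of all genes. The calls rest on differences between these same libraries, so both counts follow largely from the selection and are no separate support. Adding the run to the fit as a block raised the count to 525, which included all 346. Without skin flow 1 the count was 209 and without skin flow 3 it was 215, and 169 genes kept the call in each of the 6 refits that left out 1 flow library. The control transcripts' 3' to 5' signal difference, which grows with RNA degradation, was highest in skin flow 2 (beta-actin 1.71 on chip A, against 0.67 to 0.97 in the other 5 libraries). Cornea was lower in it by 0.166 for beta-actin and 0.336 for Gapdh on chip A (differences of -0.166 and -0.336, exact two-sided permutation test, p = 0.9 and p = 0.2, where 3 against 3 allow no p under 0.1). Its part in single genes was not tested beyond the refit with it as a covariate, which called 380 genes.

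**Figure D1:**
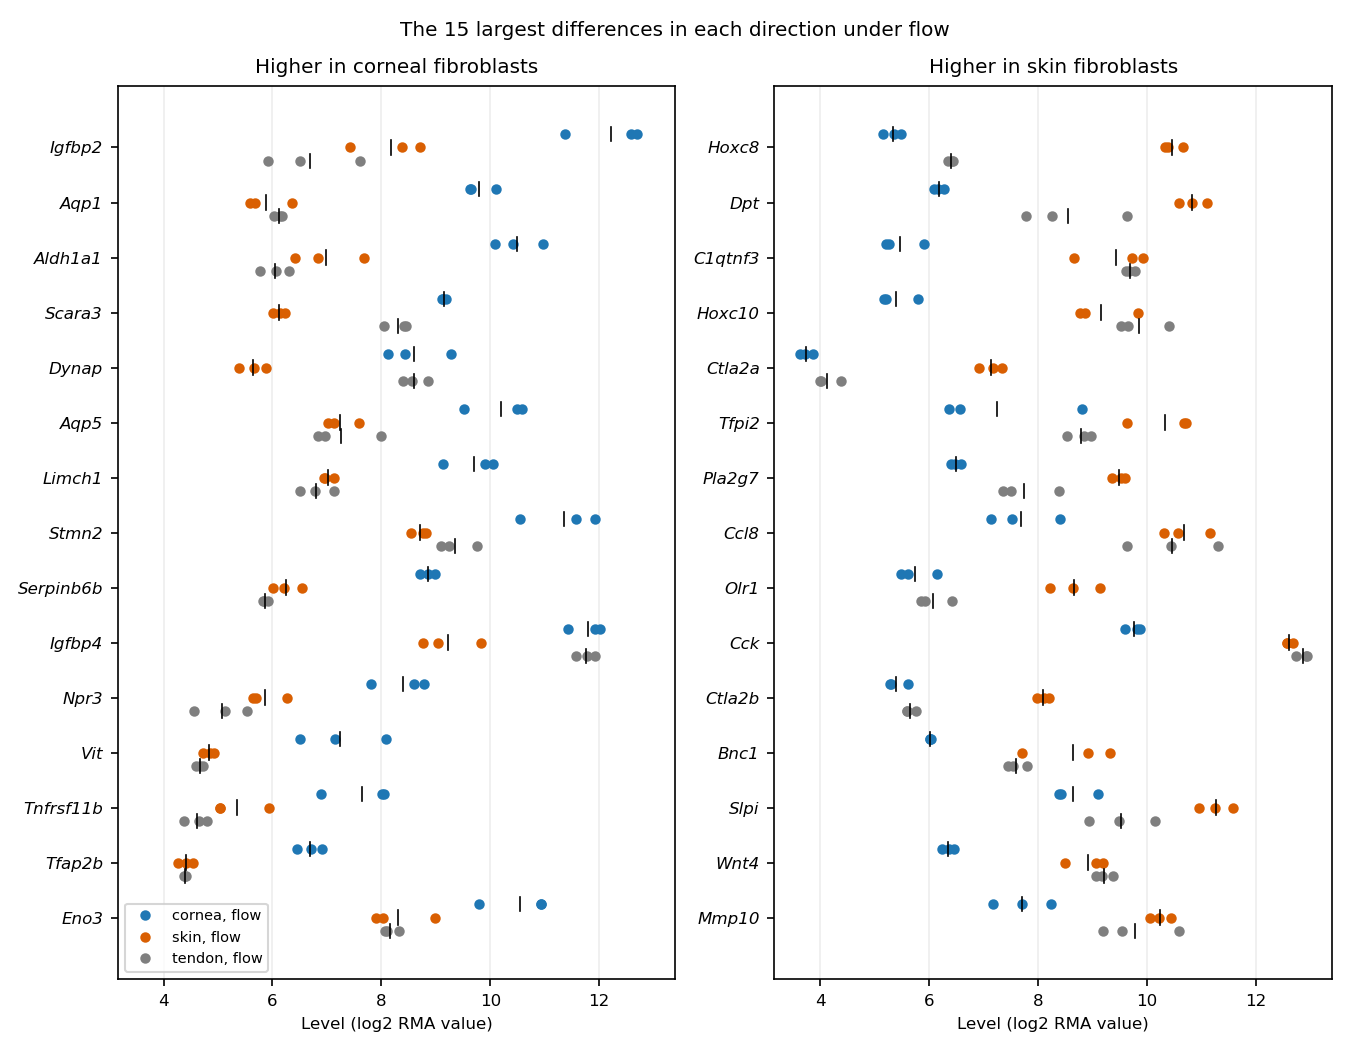
Log2 RMA level of the 15 genes with the largest differences in each direction, in each library of cornea flow, skin flow and tendon flow, with 1 point per library and a vertical tick at the mean of 3. Cornea and skin points are separate in every row, and the tendon points lie with skin for Aqp1 and Tfap2b and with cornea for Igfbp4 and Dynap.

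Among the genes higher in cornea, the 6 largest differences were those of Igfbp2, Aqp1, Aldh1a1, Scara3, Dynap and Aqp5, in this order. Igfbp2, which binds and sequesters insulin-like growth factors, stood at 12.69, 11.36 and 12.59 in cornea flow 1, 2 and 3 and at 8.71, 7.43 and 8.38 in skin flow. The second library was the lowest in both tissues, and the difference was 4.04 ± 0.61 (16.4-fold, limma adjusted p = 0.000953). Aqp1, a water channel that corneal keratocytes are known to carry, differed by 3.92 ± 0.23 (15.1-fold, adjusted p = 2.93e-08), and its mean level in skin was low. Aqp5, a water channel best known from corneal epithelium and exocrine glands, was at 10.48, 9.52 and 10.59 in cornea and at 7.12, 7.59 and 7.02 in skin, so that the lowest corneal library lay well above the highest skin library (2.95 ± 0.36, adjusted p = 0.00013).

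Aldh1a1, which makes retinoic acid from retinaldehyde and serves as a soluble crystallin in the corneas of some mammals, was at 10.97, 10.09 and 10.42 in cornea and at 6.84, 7.68 and 6.41 in skin (3.52 ± 0.28, 11.5-fold, adjusted p = 1.57e-06). Every corneal value exceeded every skin value by more than the range within either tissue. Igfbp4, a further binding protein of insulin-like growth factors, was higher in cornea by 2.58 ± 0.24 (adjusted p = 6.31e-06), and its 5 other probe sets differed in the same direction by 0.26 to 3.14. Its tendon flow levels of 11.78, 11.57 and 11.91 lay within the range of the corneal ones of 11.92, 11.44 and 12.02, whereas skin lay at 8.77, 9.83 and 9.04. Also higher in cornea were Scara3, a scavenger receptor-like protein (3.02 ± 0.19), Dynap, a dynactin-associated protein (2.97 ± 0.32), Npr3, the clearance receptor of natriuretic peptides (2.53 ± 0.33), and Tnfrsf11b, which encodes the decoy receptor osteoprotegerin (2.31 ± 0.35). The remaining genes with large differences were Limch1, an actomyosin regulator (2.69 ± 0.24), Stmn2, a microtubule-destabilising stathmin (2.65 ± 0.31), the protease inhibitor Serpinb6b (2.60 ± 0.25), the matrix protein gene Vit (2.41 ± 0.26) and the enolase gene Eno3 (2.24 ± 0.34). The 2 other probe sets of Npr3 differed by 0.28 and 0.29 only, and the single other probe set of Tnfrsf11b by 0.24. The 3 other probe sets of Limch1 gave 0.09 to 1.91. Npr3, Vit and Tnfrsf11b were low in skin.

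Among the genes higher in skin, a Hox gene and a dermal matrix gene led. Hoxc8, a gene of the HoxC cluster, stood at 10.34, 10.38 and 10.65 in skin flow and at 5.35, 5.15 and 5.49 in cornea flow, where it was low. The difference of -5.13 ± 0.18 (35-fold higher in skin, adjusted p = 4.22e-11) was the largest of all called genes, and both groups were tight. Dpt encodes dermatopontin, a matrix protein of dermis that binds decorin, and was at 11.10, 10.59 and 10.82 in skin and 6.16, 6.10 and 6.28 in cornea (-4.66 ± 0.45, 25.2-fold, adjusted p = 9.25e-06). Tendon lay between them for Dpt, at 9.62, 7.79 and 8.25. C1qtnf3, a secreted protein of the C1q and tumour necrosis factor family, was at 9.73, 8.65 and 9.92 in skin and 5.27, 5.22 and 5.91 in cornea (-3.97 ± 0.33, adjusted p = 2.03e-06), and here tendon reached the skin level (9.66, 9.62 and 9.78) while cornea was low.

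Ctla2a and Ctla2b, whose products resemble the inhibitory propeptide of cathepsins, were higher in skin by 3.40 and 2.70 (differences of -3.40 ± 0.17 and -2.70 ± 0.14, adjusted p = 2.78e-09 for both). Both were low in cornea, at 3.72, 3.62 and 3.87 for Ctla2a and 5.30, 5.29 and 5.61 for Ctla2b. The sequences of this pair are similar, so their signals may not be independent. Tfpi2, a Kunitz-type inhibitor of plasmin, was at 10.68, 9.63 and 10.71 in skin and 6.36, 8.81 and 6.56 in cornea (-3.10 ± 0.52, adjusted p = 0.00275). In this gene the second library of each tissue lay towards the other tissue, with a gap of less than 1 between them. Slpi, the secretory leukocyte protease inhibitor, differed by -2.62 ± 0.30 and Mmp10, the matrix metalloproteinase stromelysin-2, by -2.54 ± 0.40 (adjusted p = 0.00154).

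Secreted signals and genes of lipid handling were among the rest. Cck, which encodes the peptide hormone cholecystokinin, was at 12.67, 12.57 and 12.56 in skin and at 9.59, 9.81 and 9.87 in cornea (-2.84 ± 0.12, adjusted p = 4.29e-10). Tendon was at the skin level or just above it (12.93, 12.74 and 12.92). Ccl8, a monocyte-attracting chemokine, was higher in skin with a wider spread of 10.31, 11.16 and 10.58 against 7.13, 7.53 and 8.40 (-3.00 ± 0.55, adjusted p = 0.00548). Wnt4 (-2.57 ± 0.25), a Wnt ligand, was also at the skin level in tendon, with 9.37, 9.06 and 9.18 against 9.19, 9.06 and 8.50 in skin and 6.23, 6.46 and 6.36 in cornea. Pla2g7, which hydrolyses platelet-activating factor and oxidised phospholipids, differed by -3.01 ± 0.24, Olr1, a receptor of oxidised low density lipoprotein, by -2.92 ± 0.24 from a low corneal level, and Bnc1, a zinc finger protein of keratinocytes and germ cells, by -2.62 ± 0.34. Of the 200 genes higher in skin, tendon flow lay closer to skin for 100 and closer to cornea for 100. Of the 146 higher in cornea, it lay closer to skin for 112.

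The 5' flanks of the leading genes are shown so that the regulatory sequence can be set beside the size of the differences. Windows of 300 bases (250 before and 50 after the annotated start, from RefSeq on the GRCm38.p6 build) were at hand for 63 of the 95 genes named by rule. The first pair of genes in each direction with a single matching window is printed. Genes with several windows, or on a chromosome left out of this choice, were passed over. Capitals mark matches, on either strand, to TATAAA (the TATA box), to TAATCC (a word bound by bicoid-class homeodomain proteins such as Pitx and Otx) or to AGGTGT (a T-box word). These occurred in 13.6%, 7.06% and 13.7% of all 32851 windows.
Aqp1, chr6:55336049-55336348, plus strand: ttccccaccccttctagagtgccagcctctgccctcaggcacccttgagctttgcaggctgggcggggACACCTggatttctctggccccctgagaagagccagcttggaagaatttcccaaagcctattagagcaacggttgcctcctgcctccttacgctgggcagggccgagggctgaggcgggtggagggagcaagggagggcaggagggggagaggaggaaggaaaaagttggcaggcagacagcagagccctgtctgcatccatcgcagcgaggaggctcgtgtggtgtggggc
Aqp5, chr15:99590778-99591077, plus strand: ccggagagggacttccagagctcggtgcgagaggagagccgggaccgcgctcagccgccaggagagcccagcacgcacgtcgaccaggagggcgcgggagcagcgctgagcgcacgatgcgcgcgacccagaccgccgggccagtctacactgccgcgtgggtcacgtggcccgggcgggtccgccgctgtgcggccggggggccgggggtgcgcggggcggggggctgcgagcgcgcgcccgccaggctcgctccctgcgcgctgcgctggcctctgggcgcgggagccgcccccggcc
Dpt, chr1:164796413-164796712, plus strand: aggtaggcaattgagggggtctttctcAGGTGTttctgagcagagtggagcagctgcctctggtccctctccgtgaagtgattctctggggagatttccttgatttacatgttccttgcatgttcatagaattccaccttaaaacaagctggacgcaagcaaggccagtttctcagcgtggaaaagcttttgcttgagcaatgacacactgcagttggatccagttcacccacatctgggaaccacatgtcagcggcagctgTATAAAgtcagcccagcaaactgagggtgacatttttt
C1qtnf3, chr15:10952082-10952381, plus strand: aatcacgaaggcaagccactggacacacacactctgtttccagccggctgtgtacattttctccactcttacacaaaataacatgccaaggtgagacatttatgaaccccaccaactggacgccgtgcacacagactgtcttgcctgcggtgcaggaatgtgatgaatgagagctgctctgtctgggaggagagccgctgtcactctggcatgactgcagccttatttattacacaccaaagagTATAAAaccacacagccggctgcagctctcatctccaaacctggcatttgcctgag
The windows of the genes higher in skin, Dpt and C1qtnf3, each held a TATAAA, at bases 263 and 245 of the window. The Aqp1 window held the reverse complement of AGGTGT at base 69, Dpt held AGGTGT at base 28, and none of the words was present in the Aqp5 window. These matches describe the letters of the windows and carry no information on binding.

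The tissue labels were checked against marker genes. For skin, Dpt and Twist2 were higher as given here, and Tbx15 was called (-0.78 ± 0.16, adjusted p = 0.0109). Crabp1 (7.82 ± 0.88 in cornea and 8.99 ± 0.06 in skin, mean ± SD, n = 3) and Dpp4 (4.57 and 4.75, low in both) were not. For cornea, Aldh3a1 was called, whereas the keratan sulphate proteoglycan genes were not called. Kera, the keratocyte-specific keratocan, was low in both tissues at 4.62 ± 0.08 and 4.64 ± 0.13 (difference -0.02 ± 0.14, limma adjusted p = 0.996). Lum lay at 8.07 ± 0.67 and 8.32 ± 0.51 and Ogn at 8.36 ± 0.79 and 7.79 ± 1.23, and Ptgds was at 8.34 in both. Of the corneal markers, Aldh3a1 was thus called in the direction of the labels, and Kera, Lum, Ogn and Ptgds were not called. The Aldh3a1 call depended on single libraries, as given below. In static culture Aldh3a1 was not called (0.62, limma adjusted p = 0.137).

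Of 20 measured genes of keratocytes and corneal stroma, 5 were higher in cornea, 1 was higher in skin and 14 were not called (30.0% called). The median difference was -0.01. Over all genes 1.90% were called, 0.803% higher in cornea and 1.10% higher in skin, and the median was -0.01. Counts and medians of every list below are to be read beside these values. The 5 higher in cornea were Aqp1, Aldh1a1, Npr3, Clu and Aldh3a1. Clu, the secreted chaperone clusterin, was at 7.83, 7.54 and 8.11 in cornea and 6.79, 6.80 and 6.64 in skin (1.09 ± 0.19, adjusted p = 0.00408), and its 3 other probe sets gave 1.57 to 2.36. Aldh3a1, the aldehyde dehydrogenase that is the main soluble protein of mouse corneal epithelium, was at 8.18, 7.54 and 7.82 against 7.16, 6.84 and 6.99 (0.85 ± 0.20, adjusted p = 0.0315). Its groups did not overlap, but the call was kept only without cornea flow 2 and reached adjusted p = 0.0591 to 0.176 in the refits without each of the other 5 libraries. Dcn, decorin, was the member higher in skin (-0.96 ± 0.22, adjusted p = 0.0296), with -0.08 at its other probe set, and kept the call only without skin flow 2 (adjusted p = 0.0547 to 0.181 otherwise).

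Transcription factors of the anterior eye and face differed in both directions. Of 39 measured, 6 were higher in cornea and 3 in skin. Tfap2b, the AP-2 factor of neural crest that is required for the anterior segment of the eye, was at 6.90, 6.71 and 6.44 in cornea and at 4.27, 4.55 and 4.41 in skin, where it was low (2.27 ± 0.15, adjusted p = 1.05e-07). Its other probe set gave 2.25. Alx1, a homeodomain factor of the face, was at 6.48, 6.72 and 7.70 against 4.72, 4.79 and 4.68 (2.24 ± 0.23, adjusted p = 3.03e-05), with 0.40 at its other probe set. Both were at the skin level in tendon, with no library above 4.96. Alx1 was low in skin as well.

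The forkhead genes Foxc1 (1.50 ± 0.17) and Foxc2 (1.06 ± 0.25), which the anterior segment needs, and Foxl2 (0.90 ± 0.13), a factor of eyelid mesenchyme and ovary, were higher in cornea, as was Six2 (1.15 ± 0.16), a homeodomain factor of mesenchyme. The call of Foxc2 (adjusted p = 0.034) was lost without cornea flow 1 (0.182), cornea flow 3 (0.181), skin flow 1 (0.146) and skin flow 3 (0.148). Higher in skin were Zic1, a zinc finger factor (-2.32 ± 0.24, at 6.96, 6.75 and 7.09 against 4.66, 4.56 and 4.62), and the homeodomain genes Meis1 (-1.47 ± 0.21) and Meis2 (-1.13 ± 0.22), whose products pair with Hox proteins. Meis2 lost its call without cornea flow 1 (adjusted p = 0.0521). Zic1 was low in cornea. Other probe sets gave -0.26 and -0.07 for Meis1, -1.47 to -0.05 for Meis2, -2.94 for Zic1, 0.69 for Foxc1 and 0.05 for Foxl2. Pax6, the eye master gene of epithelium and retina, was at 6.99 and 6.97 and did not pass (limma adjusted p = 0.996). In the same libraries, 8 of 10 genes of a corneal endothelium list lay above 0 with a median of 0.54, and the list's median level per library was 8.23 to 8.79 in cornea and 7.78 to 7.94 in skin. Foxc1 was its only called member, Col8a2 (0.98 ± 0.50, adjusted p = 0.646) and Slc4a11 (0.03) were not called, and the part of such cells in the result was not tested.

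Of 40 measured transcription factors of dermis, limb and trunk, 4 were higher in skin and 1 in cornea (12.5% called, beside 1.90% of all genes). Twist2, which marks dermal progenitors, was at 11.39, 11.63 and 11.40 in skin and at 9.29, 9.14 and 9.77 in cornea (-2.07 ± 0.18, adjusted p = 4.41e-06). Emx2, a homeodomain factor of trunk and urogenital tissue, differed by -0.77 ± 0.16 and En1, a homeodomain factor of a dermal fibroblast lineage, by -0.73 ± 0.12, the latter at low levels in both tissues. Mab21l1, a gene that lens and cornea development needs, was the member higher in cornea (0.64 ± 0.15, adjusted p = 0.0285) and kept its call only without skin flow 2 (0.0559 to 0.181 otherwise). Tbx15 lost its call without cornea flow 1 (adjusted p = 0.0744) and skin flow 3 (0.066), and Emx2 without cornea flow 2 (0.062), skin flow 1 (0.0582) and skin flow 3 (0.0584). With the hybridisation run as a block, 4 genes of the list were called on each side. The single other probe set of Tbx15 gave -0.20. Mab21l1 was low in skin.

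Hox genes differed in a single direction. Of 33 measured, 14 were higher in skin (42.4%, beside 1.10% of all genes) and 0 were higher in cornea. A difference below 0 was seen for 30, and the median was -0.37 (-0.01 over all genes). By cluster, 2 of 9 HoxA genes, 5 of 9 HoxB genes, 5 of 7 HoxC genes and 2 of 8 HoxD genes were called. These counts depend on the probe set used. Of the genes not called, Hoxc5 (-0.17) had other probe sets at -2.86 and -0.42, and Hoxa9 (-0.14) had 1 at -1.88. Other probe sets of the remaining uncalled genes lay between -0.60 and 0.09. The count of called Hox genes ranged from 12 to 13 when 1 flow library was left out. Hoxc10, with a place nearer the 5' end of the cluster, was at 8.78, 9.83 and 8.86 in skin and at 5.21, 5.17 and 5.79 in cornea (-3.76 ± 0.30, 13.5-fold, adjusted p = 2.03e-06), and tendon was at the skin level or above (10.40, 9.65 and 9.53). Hoxc8 showed the other order, since tendon at 6.45, 6.34 and 6.41 lay near cornea.

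**Figure D2:**
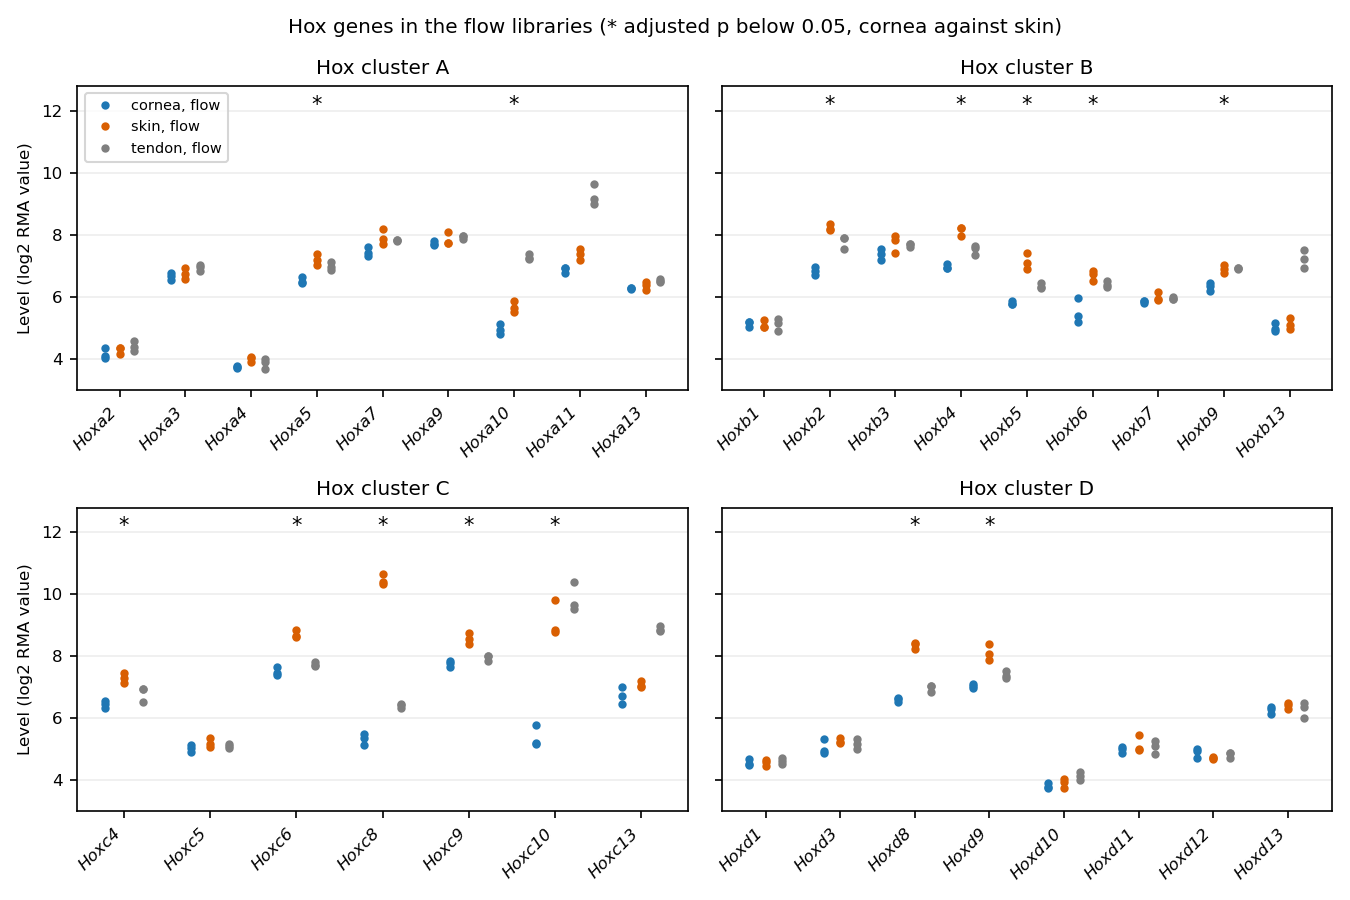
Log2 RMA level of the 33 measured Hox genes in each flow library of cornea, skin and tendon, ordered along each of the clusters HoxA to HoxD, with a star at the 14 genes called between cornea and skin. The starred genes are all higher in skin, and Hoxc8 and Hoxc10 show the widest gaps.

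At the probe sets used the other called Hox genes differed by less. Hoxd8 was at 8.39, 8.23 and 8.42 in skin and 6.61, 6.64 and 6.53 in cornea (-1.75 ± 0.17), with -1.35 at its other probe set. Hoxb2 (-1.41 ± 0.15) and Hoxb5 (-1.33 ± 0.14) followed, and Hoxc6 (-1.20), Hoxb6 (-1.18), Hoxb4 (-1.16) and Hoxd9 (-1.07) differed by more than 2-fold as well. Other probe sets gave -1.26 and -0.34 for Hoxc6, -0.32 for Hoxb4, -0.04 for Hoxa10 and 0.05 for Hoxa5. Hoxa10 was low in both tissues, and Hoxb5 and Hoxb6 were low in cornea. Hoxb9 (-0.57 ± 0.14, limma adjusted p = 0.042) lost its call in each of the 6 refits without 1 flow library (adjusted p = 0.0635 to 0.2), and Hoxa10 without cornea flow 1 (0.0836), cornea flow 3 (0.0531) and skin flow 3 (0.0878). The members with the highest position numbers, Hoxa13, Hoxb13, Hoxc13 and Hoxd13, differed by -0.35 to -0.09 and were not called.

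Of 28 measured dermal matrix and surface genes 23 lay below 0, and the median was -0.30 (-0.01 over all genes). In this list 5 were higher in skin (17.9%, beside 1.10% of all genes) and 0 in cornea. Besides Dpt these were Dlk1, a non-canonical Notch ligand of dermal progenitors (-2.08 ± 0.37), Fap, a membrane-bound serine protease of activated fibroblasts (-1.58 ± 0.25), Thy1, a surface glycoprotein of fibroblasts (-1.27 ± 0.23), and Lrig1, an inhibitor of growth factor receptors (-0.92 ± 0.12). Dlk1 was at 9.17, 7.44 and 9.20 in skin and 6.53, 6.37 and 6.69 in cornea, and its other probe set gave -0.04, and those of Lrig1 gave -1.03 and -0.10. Thy1 was high in both tissues, at 12.81, 12.61 and 12.70 in skin and 11.66, 11.13 and 11.53 in cornea.

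Of 35 collagen genes Col7a1, the anchoring fibril collagen beneath epidermis, was the only one called (2.86%, beside 1.90% of all genes). It was at 9.91, 9.62 and 9.14 in skin and 8.05, 7.97 and 8.08 in cornea (-1.52 ± 0.22, adjusted p = 0.000621). The fibrillar collagen genes Col1a1 (12.11 ± 0.13 in cornea and 12.26 ± 0.22 in skin, mean ± SD, n = 3), Col1a2 (13.80 ± 0.07 and 13.78 ± 0.07) and Col3a1 (12.72 ± 0.14 and 12.64 ± 0.04) were among the 34 that were not called. The other probe set of Col3a1 gave a difference of 1.07, against 0.07 at the one used. Those of Col1a1 and Col1a2 gave 0.09 and 0.06 to 0.29. Of 22 small leucine-rich proteoglycan and hyaluronan genes, Fmod, fibromodulin, was higher in cornea (0.94 ± 0.17, with its 5 other probe sets at 0.67 to 1.04) and Dcn higher in skin. Of 37 elastic fibre and matricellular genes, Thbs2, thrombospondin-2, was higher in skin (-1.88 ± 0.21, with other probe sets at -2.24 and -1.80). Higher in cornea were Efemp1, fibulin-3 (1.39 ± 0.29), and Smoc1 (0.83 ± 0.17), a calcium-binding matrix protein of eye and limb development. Both lost the call without skin flow 1 (adjusted p = 0.113 and 0.108) and skin flow 3 (0.0774 and 0.069), Efemp1 also without cornea flow 1 (0.0964) and Smoc1 without cornea flow 3 (0.0956). With the run as a block, 2 of the 37 were higher in cornea and 5 in skin. Thbs2 was also called among 16 tendon genes, with Fmod, while Scx (0.60) and Tnmd (0.04) were not.

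Of 34 genes of matrix crosslinking and proteolysis, 5 were higher in skin and 1 in cornea. Those higher in skin were all matrix metalloproteinases: Mmp10, Mmp13 (-1.59 ± 0.40), Mmp11 (-1.44 ± 0.34), Mmp9 (-1.33 ± 0.29) and Mmp2 (-0.97 ± 0.24). Mmp13, a collagenase, was at 9.17, 8.87 and 8.58 in skin and at 6.23, 8.30 and 7.32 in cornea, where cornea flow 2 approached the skin values. All of these but Mmp10 depended on single libraries, and the number higher in skin was 1 without cornea flow 1, cornea flow 3, skin flow 1 or skin flow 3, and 2 without skin flow 2. The number higher in cornea was then 2 without cornea flow 1 and 1 in the others, so that more calls on the skin side than on the corneal side were not seen in the refits without cornea flow 1, cornea flow 3, skin flow 1 or skin flow 3. Mmp2 lost its call in each of the 6 refits (adjusted p = 0.0584 to 0.189), Mmp13 and Mmp11 kept theirs only without cornea flow 2 (0.0815 to 0.229 and 0.0815 to 0.197 otherwise), and Mmp9 kept its call only without cornea flow 2 or skin flow 2 (0.0555 to 0.132 otherwise). The member higher in cornea was Mmp16, a membrane-type metalloproteinase (1.45 ± 0.22, adjusted p = 0.000822), which kept its call in every such refit, although its 3 other probe sets gave 0.15 to 0.72. Of 42 integrin, laminin and adhesion genes, 2 basement membrane genes were higher in cornea and 0 in skin. Npnt, nephronectin, differed by 2.05 ± 0.33 (other probe sets -0.03 to 1.61) and Nid2, nidogen-2, by 1.44 ± 0.12 from a low skin level.

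**Figure D3:**
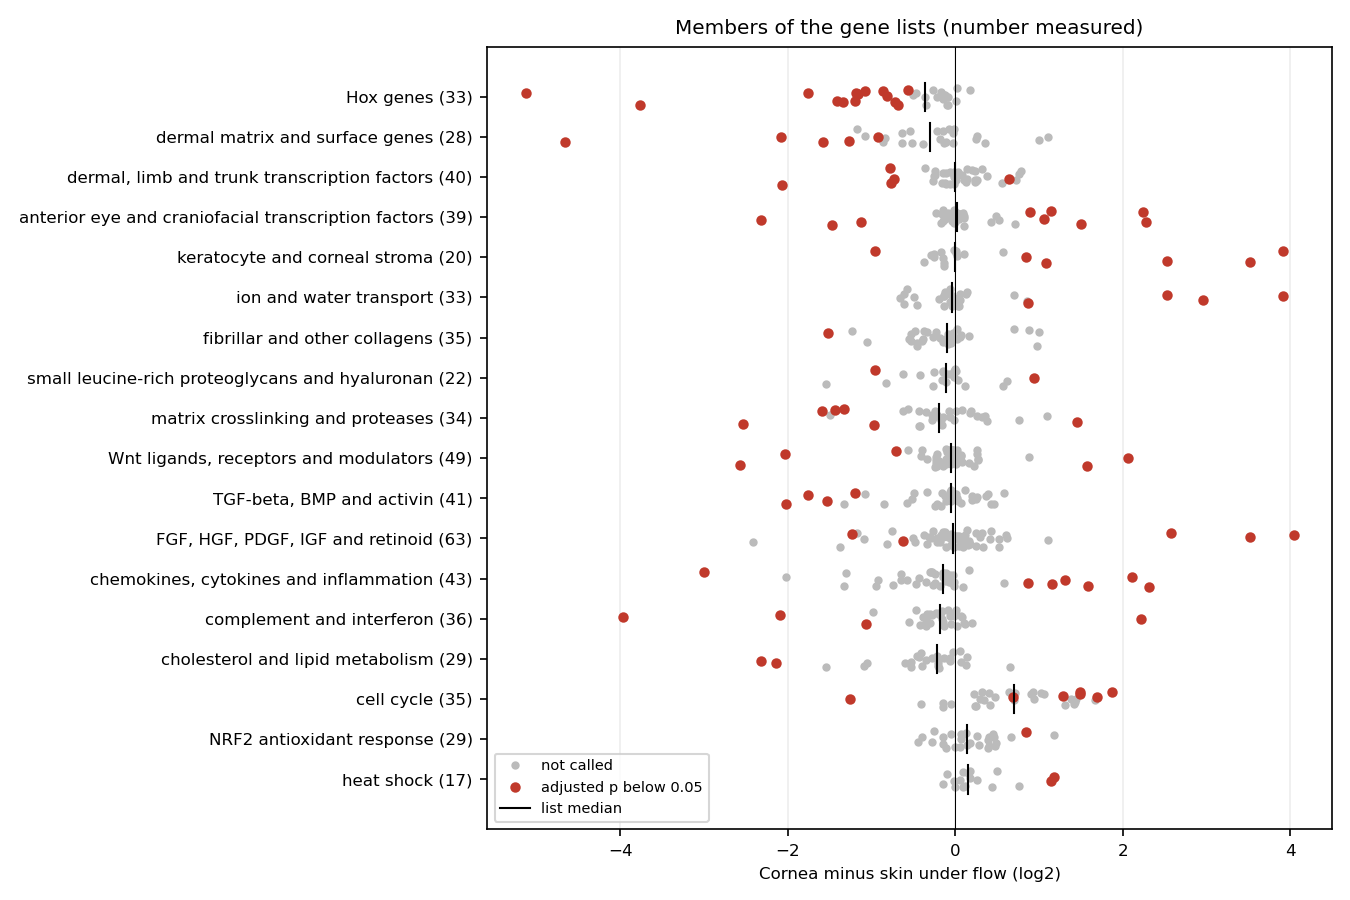
Difference between cornea and skin under flow (log2) for every measured member of 18 gene lists, with called members in red, the others in grey and the list median as a black bar. Called Hox genes lie on the skin side, called ion and water transport genes on the cornea side, and the cell cycle list has its median at 0.70.

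Signalling genes differed singly. Of 49 Wnt genes, 2 were higher in cornea and 3 in skin (10.2% called, beside 1.90% of all genes). Dkk2, a secreted Wnt antagonist that the eye surface needs, was at 10.69, 9.47 and 10.23 in cornea and at 7.94, 8.97 and 7.29 in skin (2.06 ± 0.41, adjusted p = 0.00973), and Fzd6, a Wnt receptor, was higher in cornea by 1.57 ± 0.22 at the probe set used, with -0.11 and 0.17 at others. Higher in skin besides Wnt4 were Lgr5, a receptor of R-spondins (-2.03 ± 0.26), and Apcdd1, a membrane-bound Wnt inhibitor (-0.71 ± 0.14). Their other probe sets gave -0.075 for Lgr5, -0.73 for Wnt4 and -1.16 to -0.06 for Apcdd1. Apcdd1 was low in cornea. Dkk2 lost its call without cornea flow 1 (adjusted p = 0.0677), skin flow 1 (0.0522) and skin flow 3 (0.069), and Apcdd1 without cornea flow 1 (0.0624) and skin flow 1 (0.0576).

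Of 41 TGF-beta, BMP and activin genes, 4 were higher in skin (9.76%, beside 1.10% of all genes) and 0 in cornea. Tgfbi, a TGF-beta-induced matrix protein whose human gene is mutated in corneal dystrophies, was at 8.83, 9.27 and 8.59 in skin and at 6.84, 6.68 and 7.11 in cornea (-2.02 ± 0.38, adjusted p = 0.00697). The others were Inhbb, an activin subunit (-1.76 ± 0.41), Id4, a BMP-induced inhibitor of helix-loop-helix factors (-1.53 ± 0.33), and Fst, the activin antagonist follistatin (-1.19 ± 0.26). The count was 2 without cornea flow 3 and 1 without skin flow 1 or skin flow 3. Inhbb had -0.155 at its other probe set and kept its call only without cornea flow 1 (adjusted p = 0.0882 to 0.152 otherwise). Id4 lost its call without cornea flow 3 (0.103), skin flow 1 (0.0852) and skin flow 3 (0.105). Fst lost it without cornea flow 1 (0.0863), cornea flow 2 (0.0834), skin flow 1 (0.1) and skin flow 3 (0.0956).

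Among 63 genes of growth factor and retinoid pathways 7.94% were called, beside 1.90% of all genes, and Igfbp2, Aldh1a1 and Igfbp4 were higher in cornea. Spry1, a feedback inhibitor of receptor tyrosine kinases (-1.23 ± 0.29), and Gfra1, a receptor of glial cell line-derived neurotrophic factor (-0.62 ± 0.12), were higher in skin. Gfra1 was low in both tissues, and its 2 other probe sets gave -2.08 and -0.48. Spry1 kept its call only without cornea flow 1 (adjusted p = 0.0532 to 0.179 otherwise), and Gfra1 lost its call without skin flow 1 (0.0731). With the run as a block 4 were higher in cornea and 5 in skin. Of 55 guidance genes 5.5% were called, beside 1.90% of all genes. Slit3, a secreted ligand of Robo receptors, was higher in skin at 10.71, 10.67 and 10.72 against 8.91, 8.96 and 9.10 (-1.71 ± 0.21, adjusted p = 0.00012). Epha2, an ephrin receptor (0.81 ± 0.10), and Unc5c, a netrin receptor (0.82 ± 0.19), were higher in cornea, and Unc5c kept its call only without skin flow 2 (0.0618 to 0.18 otherwise). With the run as a block 3 of the guidance genes were higher in skin and 2 in cornea. Of 29 hedgehog and Notch genes only the Notch ligand gene Jag1 was called (3.45%, beside 1.90% of all genes). Its difference was -1.59 ± 0.39 (adjusted p = 0.0425), and the call was kept only without skin flow 2 (0.0742 to 0.25 otherwise).

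Water and ion transport genes that passed the test were all on the corneal side. They were 4 of 33 measured, namely Aqp1, Aqp5, Npr3 and Car13, a cytosolic carbonic anhydrase (0.87 ± 0.18), and the list median was -0.04. The 2 other probe sets of Car13 gave 0.11 and 0.46. Car13 lost its call without cornea flow 1 (adjusted p = 0.0522), cornea flow 2 (0.0587), skin flow 1 (0.071) and skin flow 3 (0.0786). Aqp3, a water and glycerol channel (0.05), and Atp1b1, a sodium pump subunit (-0.46), were not called.

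Genes of inflammation were called mainly on the corneal side, although 34 of 43 lay below 0 and the median was -0.14 (-0.01 over all genes). Of this list 16.3% were called, beside 1.90% of all genes. The 6 higher in cornea were Tnfrsf11b, Cxcl5, a neutrophil-attracting chemokine (2.11 ± 0.40), Ackr3, a scavenging chemokine receptor (1.58 ± 0.30), Ccl9, a chemokine (1.31 ± 0.26), Ptx3, a secreted pentraxin (1.15 ± 0.28), and Ptgis, prostacyclin synthase (0.87 ± 0.17). Cxcl5 was at 10.71, 8.92 and 10.06 in cornea and at 8.18, 7.24 and 7.94 in skin, with the second library lowest in both. Ccl8 was the single one higher in skin, and the chemokine genes next to it in size, Ccl7 (-2.02 ± 0.58, adjusted p = 0.108) and Ccl2 (-1.30 ± 0.73, adjusted p = 0.75), were not called. The calls of Ackr3 (adjusted p = 0.0521) and Ptgis (0.067) were lost without skin flow 3, that of Ccl9 without cornea flow 3 (0.0666), and that of Ptx3 without cornea flow 1 (0.212), cornea flow 3 (0.081), skin flow 2 (0.196) and skin flow 3 (0.133). The single other probe set of Ccl9 gave 0.06. Without skin flow 3 the corneal count of this list was 3.

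Complement genes were split. Of 36 complement and interferon genes, Masp1, a protease of the lectin pathway, was higher in cornea at 11.72, 11.94 and 12.03 against 9.10, 10.93 and 9.02 (2.21 ± 0.45, adjusted p = 0.012). It lost its call without cornea flow 3 (0.0534), skin flow 1 (0.0888) and skin flow 3 (0.0815). Serping1, the C1 inhibitor, was higher in skin at 10.25, 9.53 and 9.74 against 7.98, 7.24 and 8.01 (-2.09 ± 0.37, adjusted p = 0.00411), as were C2 (-1.07 ± 0.21), which was lost without skin flow 1 (0.0772), and C1qtnf3. No interferon-induced gene of the list passed the test. With the run as a block 5 of the list were higher in skin. The 4 other probe sets of Masp1 gave 0.21 to 2.06. Of 29 genes of cholesterol and lipid metabolism, 2 were higher in skin, Lpl, lipoprotein lipase (12.41, 12.57 and 12.45 against 11.02, 9.32 and 10.12, -2.32 ± 0.36), and Apod, a lipocalin (-2.15 ± 0.31), and Apod had a second probe set at -0.08. With the run as a block 5 of these were higher in skin and 0 in cornea.

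Most of the cell cycle genes that were called were higher in cornea. Of 35 measured cell cycle genes 30 lay above 0. The median difference was 0.70 (0.47, 1.27 and 0.73 within runs of replicates 1, 2 and 3), beside -0.01 over all genes. In this list 6 were called higher in cornea and 1 higher in skin (20.0% called, beside 1.90% of all genes). The list's median level per library was 8.43 to 8.99 in cornea and 7.41 to 7.64 in skin. Ube2c, an ubiquitin-conjugating enzyme of mitotic exit, was at 8.27, 9.09 and 8.79 in cornea and at 6.84, 6.66 and 7.01 in skin (1.88 ± 0.30, adjusted p = 0.00154). Tk1, thymidine kinase (1.69 ± 0.35), Ccnb2, cyclin B2 (1.49 ± 0.35), Cenpa, the centromeric histone (1.49 ± 0.32), Birc5, survivin (1.28 ± 0.24), and Cdkn2c, an inhibitor of cyclin D kinases (0.69 ± 0.13), were the others, and cornea flow 2 was the highest library for Ube2c, Tk1, Ccnb2 and Cenpa.

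Cdkn2a, which encodes the growth inhibitors Ink4a and Arf, was the cell cycle gene higher in skin (-1.26 ± 0.28, adjusted p = 0.0223). The division marker Mki67 (1.67 ± 0.48, adjusted p = 0.104) was not called. The number called higher in cornea fell to 4 without cornea flow 1, 3 without cornea flow 2, 3 without skin flow 1 and 2 without skin flow 3. The 2 other probe sets of Cenpa gave 0.16 and 0.23. Ube2c and Birc5 kept their calls in all 6 such refits. Tk1 lost its call without cornea flow 2 (adjusted p = 0.0764) and skin flow 3 (0.085), Cenpa without cornea flow 2 (0.0846), skin flow 1 (0.0861) and skin flow 3 (0.0678), and Cdkn2c without cornea flow 1 (0.0632), skin flow 1 (0.0522) and skin flow 3 (0.063). Ccnb2 kept its call only without cornea flow 3 (0.0563 to 0.164 otherwise). Cdkn2a lost its call without cornea flow 1 (0.109), cornea flow 2 (0.0894), skin flow 2 (0.112) and skin flow 3 (0.0678).

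**Figure D4:**
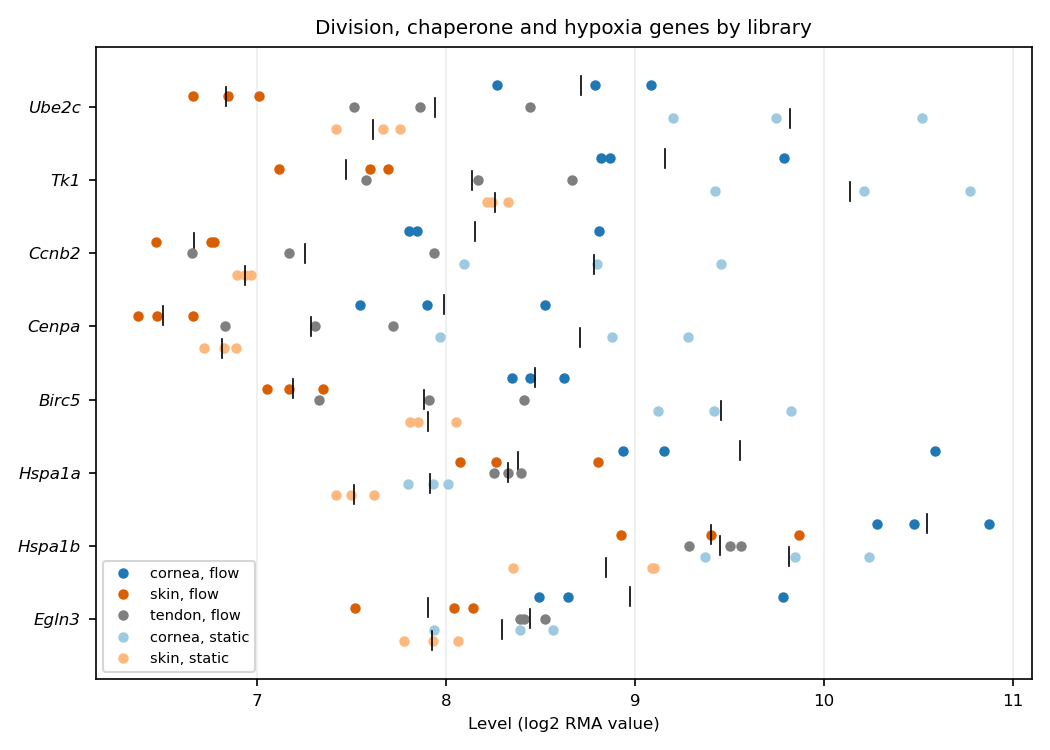
Log2 RMA level of 5 cell division genes, the Hsp70 genes Hspa1a and Hspa1b and the hypoxia gene Egln3 in each library of 5 groups, with 1 point per library and a tick at the mean of 3. The division genes are higher in cornea than in skin both under flow and in static culture, and 1 corneal flow library stands above the others for Hspa1a and Egln3.

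Stress genes passed only in a few members. Hspa1a and Hspa1b, near-identical genes of inducible Hsp70 that arrays may not separate, were the 2 called of 17 heat shock genes (1.18 ± 0.29 and 1.15 ± 0.28, adjusted p = 0.0497 and 0.0425). Hspa1a was at 9.15, 10.59 and 8.93 in cornea and at 8.07, 8.26 and 8.80 in skin, with cornea flow 2 well above the other libraries. Hspa1a lost its call without cornea flow 2 (adjusted p = 0.0708), skin flow 1 (0.242) and skin flow 2 (0.154), and Hspa1b kept its call only without skin flow 3 (0.0597 to 0.248 otherwise). Egln3, an oxygen-sensing prolyl hydroxylase, was the only one of 23 glycolysis and hypoxia genes called (1.07 ± 0.26, adjusted p = 0.0408), and here too cornea flow 2 was high, at 9.78 against 8.49 and 8.64. It lost its call without cornea flow 2 (0.121), skin flow 1 (0.234), skin flow 2 (0.0713) and skin flow 3 (0.0646). Aldh3a1 was the single call among 29 genes of the NRF2 antioxidant response (3.45%, beside 1.90% of all genes). Among 37 contractile and mechanical target genes Acta1, skeletal alpha-actin, was the single call (-1.13 ± 0.25), kept only without skin flow 2 (0.0674 to 0.151 otherwise), and Acta2, smooth muscle actin, was high in both (13.74 ± 0.04 and 13.76 ± 0.12, mean ± SD, n = 3).

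Over the 15 lists of markers of other cell types, 8 of 176 memberships were called (4.55%, beside 1.90% of all genes). No member was called of 13 keratinocyte, 12 lens, 12 pigment cell, 8 glial, 11 vascular endothelial, 13 smooth muscle or 13 cartilage and bone genes by limma. The defining genes Krt14 (5.77 in both), Krt12 (5.15 and 5.40), Pecam1 (5.52 and 5.56), Cdh5 (5.77 and 5.94) and Ptprc (4.80 and 4.82) were low in both tissues. Single genes were called in the remaining lists, namely Krt19, a simple keratin, at 7.10, 7.47 and 7.19 against 6.11, 6.19 and 6.35 (1.04 ± 0.12), Aldh3a1 in the corneal epithelium list, Foxc1 in the corneal endothelium list as given above, Stmn2 in the neuron list, Lpl among adipocyte genes, Acta1 among skeletal muscle genes, Cd68 among leukocyte genes (-0.58 ± 0.14) and Prom1 among dermal papilla genes (-1.20 ± 0.27). Cd68 kept its call only without cornea flow 2 (adjusted p = 0.0568 to 0.194 otherwise), and Prom1 lost its call without cornea flow 1 (0.0544), cornea flow 2 (0.132), skin flow 2 (0.0789) and skin flow 3 (0.148). Cd68 and Prom1 were low in cornea.

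The tissue difference under flow was then set beside that in static culture, which asks whether flow altered it. Static cornea and skin differed in 444 genes (2.44%), 244 higher in cornea (1.34%) and 200 higher in skin (1.10%). The cornea static libraries all fell in the same hybridisation run, whereas skin static 1, 2 and 3 fell in 3 different runs. Skin static 1 also differed in month and chip lot. Tissue and run therefore cannot be fully told apart in the static difference or in the interaction. With the run as a block 482 static genes were called. Of the genes called, 261 were called in both states, all in the same direction, which is 75.4% of the flow calls and 58.8% of the static calls. All 346 flow calls had the same sign in static culture, against 68.5% of all genes. These comparisons share no library, but static and flow libraries of a tissue share a noted date in the scan records in part. Both were also taken from the same fit, with a common estimate of each gene's spread. Calls in both states are therefore not independent of each other. The 85 genes called under flow alone are not shown to differ between the states by that count.

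**Figure D5:**
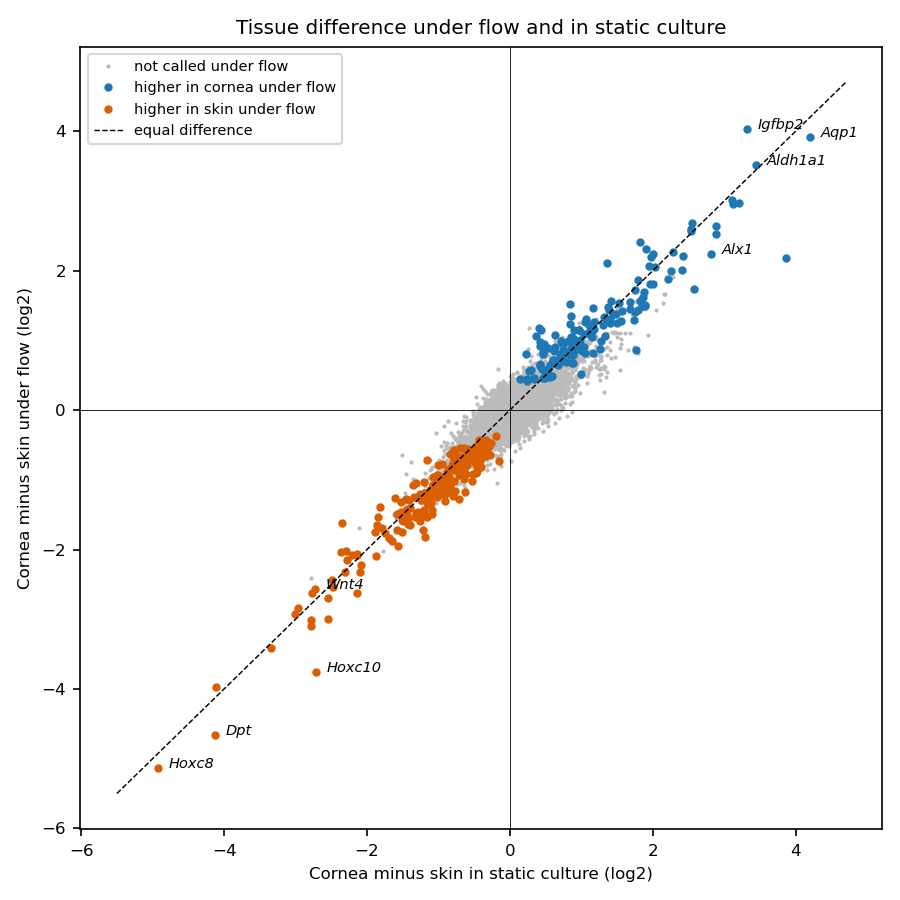
Difference between cornea and skin (log2) under flow against the same difference in static culture, for all 18193 genes, with genes called under flow in colour and the line of equal differences dashed. The coloured points of both directions lie along the line.

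The difference itself was tested as an interaction, the flow difference minus the static difference. No gene was called by limma (0 of 18193, smallest adjusted p = 1.00). With the noted date as a random block 0 were called as well, and 656 genes had an unadjusted limma p below 0.05. In the main fit 207 genes (1.14%) reached an unadjusted p below 0.05, and 14 of these were among the 346. That share is under what the threshold alone would pass with no differences, so the test was conservative. The 0 calls therefore do not show that the differences were equal. The smallest unadjusted p-values belonged to Cenpp, a centromere protein gene, with 0.86 under flow and 1.76 in static culture (interaction -0.90 ± 0.22, limma adjusted p = 1), and to Acap2, a regulator of Arf6, with -0.38 and 0.27 (-0.65 ± 0.16, limma adjusted p = 1). Of the other 8 smallest, Mroh4, Myct1, Nccrp1, Carmil2, Ccdc201 and Mzb1 had interactions between -0.59 and 0.51, and 2 had clone names. For some of the leading genes the estimates lay close together, and for others they lay further apart. Aqp1 differed by 3.92 under flow and 4.21 in static culture, Aldh1a1 by 3.52 and 3.45 and Hoxc8 by -5.13 and -4.92. Dpt differed by -4.66 and -4.12 (interaction -0.53 ± 0.63) and Igfbp2 by 4.04 and 3.32 (0.72 ± 0.86). Hoxc10 differed by -3.76 and -2.71 (interaction -1.05 ± 0.43). Of the 346 flow calls, 222 were larger in size under flow than in static culture and 124 were smaller. The 346 were selected by their flow difference, so this count does not show that flow enlarged it. The cell cycle list had a median difference of 0.70 under flow and 0.81 in static culture, and Hspa1a differed by 1.18 under flow and 0.40 in static culture (limma adjusted p = 0.72), a contrast between states that the interaction did not call.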

How the data were processed

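Transcripts were measured with 2 Affymetrix chips per library. The authors deposited log2 values made with RMA, per the submitters' processing notes (its version is not given in the sources used here), which corrects background, normalises by quantiles within a chip's 18 arrays and summarises each probe set. By the hybridisation times in the scan records the libraries fall into 3 runs, and by month into 2 batches that coincide with the chip lots. The RNA amount was 100 ng per library. From these values, each gene was represented by 1 probe set (cross-hybridising sets last, chip A before chip B, then the highest mean), with 12388 genes on chip A, 5805 on chip B, and 9040 having several. Probe sets with no or several symbols were left out. Group means of all 18 libraries in 6 groups were fitted per chip with limma 3.58.1 in R 4.3.3, without covariates, and p-values adjusted over 18193 genes by Benjamini-Hochberg. The fit was tested on simulated data.

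The members and the 41 gene lists were chosen with earlier results of these data known. Named were the 15 largest called, non-overlapping differences each way, up to 5 called genes per list, and the 10 smallest interaction p-values. Further genes were picked as examples with their values in view. In the flow groups the deviations of same-numbered libraries correlated at 0.29 to 0.38 and those of differently numbered ones at -0.26 to 0.04, and the replicate number there coincides with the hybridisation run. In static groups same-numbered correlations were -0.40 to -0.10. Alternatives were 25 planned settings and 2 added after the data were seen. The number of arrays limits the precision.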

Additional observations from a re-analysis of the deposited data

How the results depend on the processing

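The count of 346 genes between cornea and skin under flow was 209 to 386 over the refits that left out 1 library, with the lowest values without skin flow 1 (209) and skin flow 3 (215). It rose to 582 with array weights and to 525 with the hybridisation run as a block. The static count of 444 was 923 with array weights and 229 to 492 over the refits without 1 library, with 248 without cornea static 2, 229 without skin static 1 and 286 without skin static 3. Other settings gave 246 to 478 flow calls, 246 in the fit of the 6 flow libraries alone, of which 208 were among the 346. With the replicate number as a replicate block 437 genes were called, 341 of them among the 346, and 574 in static culture. There cornea static 3 and skin static 3 shared a run. Cornea static 1 and cornea static 2 shared none with the skin static libraries of the same number. The interaction had 0 calls under every setting run. Of 2553 results for the 95 named genes under 27 settings, 2346 kept the call, 207 lost it and 0 reversed. The most calls were lost without skin flow 1 (28) and skin flow 3 (27), and 57 genes kept the call under all of them. The causes were not tested. List medians moved beyond the spread in 22 of 1107 cases. Of the called genes, 33 had a corneal level and 29 a skin level below the 25th percentile of the chip.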

Other observations

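Probe sets without a single gene symbol were fitted apart from the genes. Of 10096 such probe sets 38 were called under flow (0.376%), 14 higher in cornea with a difference of up to 4.82 and 24 higher in skin with a difference of up to -3.26, and 37 of the 38 had the same sign in static culture. They are not named here.

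The 100 probe sets placed on both chips allowed the chips to be compared. Their cornea minus skin differences under flow, which ranged from -0.48 to 0.44 on chip A, differed between the chips by a median of 0.05 and at most 0.26. Of the 346 called genes, 171 had other probe sets, all of which had the same direction for 144 genes and none of which had it for 10. Tendon flow lay outside the span of cornea and skin on the skin side for 70 of the called genes and on the cornea side for 17.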
